A study of Mus musculus with 4 samples.

Results

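The EphA receptors and ephrin-A ligands were followed here in the posterior epiblast of wild type (WT) mouse embryos as the embryo passed into trunk formation. The genes were chosen by name, as the rows of the deposited table called Epha1, Epha2, Epha3, Epha4, Epha5, Epha7, Efna1, Efna3, Efna4 and Efna5. They are 10 of the 53397 genes in the table, 6 receptors and 4 ligands. RNA-seq compared E8.5 posterior epiblast with E7.5 posterior epiblast, embryonic stages named by their day of development, with 2 libraries per stage. Both groups were WT, and neither had been treated. Tissue was dissected and pooled for each library. The mouse strain and how many embryos made a pool are not given in the sources used here. Because dissected tissue was read in bulk, fewer cells of a type and less RNA per cell cannot be told apart.

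Eph receptors are receptor tyrosine kinases, and their ligands, the ephrins, are held on the surface of neighbouring cells. A-class ephrins are attached to the membrane by a lipid anchor and bind mainly EphA receptors, whereas B-class ephrins span the membrane and bind mainly EphB receptors. Contact between the cells signals into the receptor cell and also back into the ligand cell, and it commonly changes adhesion and the actin cytoskeleton through small GTPases. In the early embryo the family is known for keeping cell populations apart at tissue borders, such as those between somites or between hindbrain segments, and later for guiding axons.

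The reads assigned to genes numbered 18488218 and 18515565 in the E8.5 libraries, against 19111464 and 19493342 in the E7.5 libraries. Values are the normalized counts of the table, that is, reads scaled by a constant for each library to a common depth. A single gene, CT010467, took 25.6% of the summed value in E7.5 replicate 1 and 18.5% to 18.9% in the other libraries, so E7.5 replicate 1 stands apart in this respect. Markers of the caudal epiblast and primitive streak, which define the labelled tissue, were present in all libraries, with Nkx1-2 at 213 and 188 in E8.5 libraries against 319 and 345 in E7.5 libraries and Cdx2 at 260 and 260 in E8.5 libraries against 259 and 227 in E7.5 libraries. The 9 caudal markers analysed summed to 824 and 788 at E8.5 and to 1170 and 1180 at E7.5. They did not move together: 5 fell, 2 (Fgf8 and Evx1) rose, and 2 did neither. Other cell types also left their markers. The counts of markers that rose or fell stand beside 25.6% of all genes tested that were higher and 26.4% that were lower. The 10 visceral endoderm markers summed to 313 and 321 at E8.5 against 2599 and 2516 at E7.5, and 10 of 10 fell with none at 0. The 7 blood markers summed to 404 and 409 at E8.5 against 1.80 and 0.710 at E7.5, where Hba-x, Hbb-y and Slc4a1 had no reads, and the 8 endothelium markers to 218 and 198 at E8.5 against 47.8 and 45.5 at E7.5. All of the 6 blood markers and 8 endothelium markers that were tested rose. The 7 markers of neural plate and neural tube were low, with sums of 17.2 and 18.1 at E8.5 against 10.7 and 10.5 at E7.5, and 2 of the 3 tested rose. Of 8 definitive endoderm markers 7 fell, with sums of 548 and 568 at E8.5 against 939 and 912 at E7.5. Foxa2, which fell, is counted both there and among the node and notochord markers. Lateral plate and allantois markers rose in 5 of 6, with sums of 277 and 277 at E8.5 against 215 and 210 at E7.5, and surface ectoderm markers in 2 of 3 tested, with sums of 49.0 and 46.1 at E8.5 against 16.9 and 15.3 at E7.5. Other lists moved both ways. Of 8 presomitic and somitic mesoderm markers 3 rose and 4 fell, with sums of 345 and 348 at E8.5 against 419 and 414 at E7.5. So did markers of node and notochord (2 of 6 higher, 3 lower) and of extraembryonic ectoderm (1 of 4 tested higher, 2 lower). Testing required a value of 1 in 2 or more libraries, which fixed some of these directions. The 6 blood markers tested, Emcn, Tie1, Pax6, Nkx6-1 and Trp63 were under 1 in both E7.5 libraries and could only rise. Foxj1 and Eomes were under 1 in both E8.5 libraries and could only fall. Irx3, the neural marker above 1 at both stages, did neither. The shifts in markers run along the same comparison as every result given here, and their part in the changes of the Eph genes was not tested.

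Stages were compared with limma on log2(value + 1), so that a log2 fold change is E8.5 minus E7.5 on that scale and understates the change of genes at low values. A gene was tested when 2 or more libraries reached a value of 1, which 13903 genes did, and a gene was called at a Benjamini-Hochberg adjusted p under 0.05 over all of them. An exact permutation test of a single gene cannot go below p = 0.333 with 2 libraries against 2, so the calls rest on a spread that limma shares among genes.

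Of the 10 genes, 9 passed the filter on low values, each with a value above 1 in all 4 libraries, and 9 of 9 were called, 6 higher and 3 lower at E8.5. Calls were common in this comparison: 52.0% of all genes tested were called, 25.6% higher and 26.4% lower. The E8.5 and E7.5 libraries did not overlap in any of the 9 genes, as was the case for 76.3% of all genes tested. The ligands listed moved in one direction, with 4 of 4 higher and 0 lower, and the receptors in both, with 2 higher and 3 lower of 5 tested. Efna2, an ephrin-A ligand gene outside the list, was also tested and was lower (log2 fold change -0.96, limma adjusted p = 0.00012). The median log2 fold change of the 9 genes was 0.53, next to -0.0074 over all genes tested. A change of at least 1 on the log2 scale was met by 3 genes, Epha5 and Efna3 above and Epha1 below, where 10.8% of all genes tested met it, 4.48% above and 6.35% below. With edgeR's quasi-likelihood test on the recovered reads, which called 51.8% of the genes tested, all 9 were called, and with DESeq2, which called 40.5%, all but Epha4 and Epha7. The gene that was not tested, Epha3, was near the limit of detection at both stages.

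**Figure D1:**
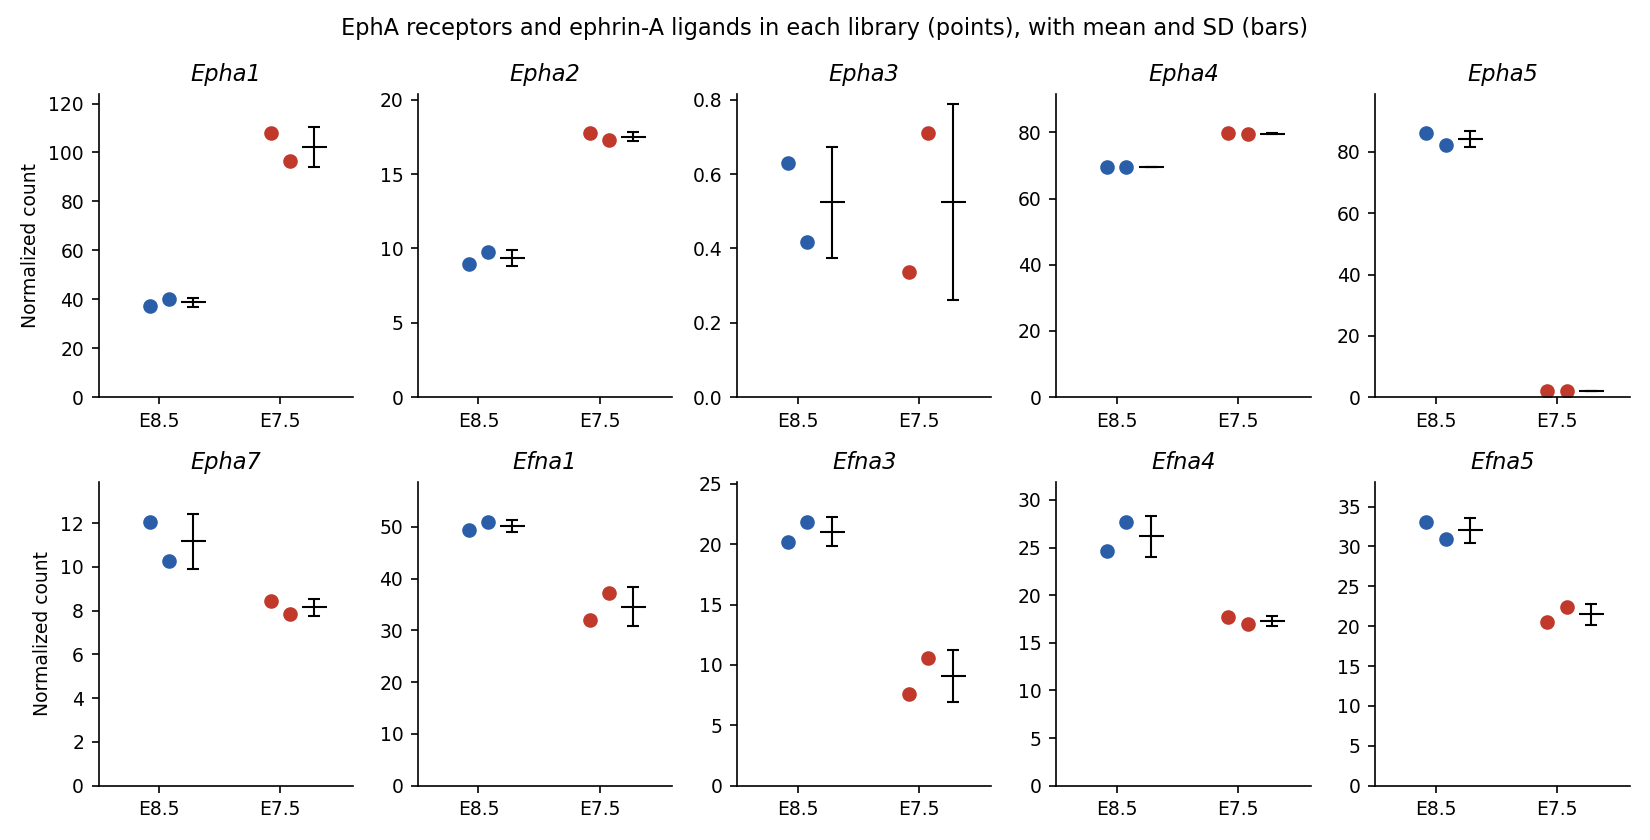
Normalized count (vertical axis, linear and starting at 0) of each EphA receptor and ephrin-A ligand in every library, with E8.5 libraries in blue on the left and E7.5 libraries in red on the right of each panel, and the mean with its SD as a black bar beside the points (n = 2 per stage). Epha5 stands at 82.4 and 86.1 in the E8.5 libraries and at 1.91 and 1.93 in the E7.5 libraries, Epha1 shows the reverse order, and only Epha3 overlaps between stages.

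Epha5 (ENSMUSG00000029245.16, chr5:84054761-84417382, minus strand; gene positions are those of GENCODE vM21 on GRCm38) had the largest change of the receptors. It encodes a receptor best known for axon guidance in the forebrain and visual system. The normalized count was 86.1 and 82.4 in the E8.5 libraries (1641 and 1578 reads), against 1.91 and 1.93 in the E7.5 libraries (34 and 38 reads). The replicates lay close together at both stages and far from the other stage. Means were 84.2 ± 2.63 at E8.5 and 1.92 ± 0.0115 at E7.5 (SD, n = 2 each), a ratio of 43.9. The log2 fold change was 4.87 (standard error 0.11, 95% interval 4.62 to 5.11, limma adjusted p = 5.6e-14), which ranked 9 of the 13903 genes tested in the upward direction. Its size depended on the scale, from 3.90 with a pseudocount of 4 to 5.46 with DESeq2 on the reads.

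Epha1 (ENSMUSG00000029859.6, chr6:42358487-42373268, minus strand) changed most in the other direction. Its receptor is expressed mainly in epithelia. Values were 37.4 and 40.1 at E8.5 (712 and 769 reads), against 108 and 96.4 at E7.5 (1920 and 1900 reads). Every E7.5 library was thus above every E8.5 library by more than 56.2, while the replicates of E7.5 differed more from each other than those of E8.5. The mean at E7.5 was 2.64 times that at E8.5, with 38.8 ± 1.97 at E8.5 and 102 ± 8.17 at E7.5. The log2 fold change of Epha1 was -1.37 (standard error 0.08, 95% interval -1.54 to -1.21, limma adjusted p = 1.7e-09). Exons of Epha1 overlap those of Zyx, which encodes the focal adhesion protein zyxin from the opposite strand, over 236 bases or 6.01% of the exon length of Epha1. Since SMART-Seq2 libraries carry no strand information, reads over the shared bases may have come from either gene. Zyx itself had 116 and 111 at E8.5 against 118 and 123 at E7.5, a log2 fold change of -0.09 (95% interval -0.22 to 0.04, limma adjusted p = 0.25).

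The promoters of these 2 receptors are shown because their genes moved furthest in opposite directions. The sequences are the 250 bases before the RefSeq start on GRCm38.p6, read 5′ to 3′ on the strand of the gene, and capitals mark GGGCGG or its reverse complement CCGCCC, the core of the GC box. Epha5 lies on the minus strand, with the bases shown at chr5:84417383-84417632, and Epha1 on the minus strand, at chr6:42373269-42373518.
Epha5: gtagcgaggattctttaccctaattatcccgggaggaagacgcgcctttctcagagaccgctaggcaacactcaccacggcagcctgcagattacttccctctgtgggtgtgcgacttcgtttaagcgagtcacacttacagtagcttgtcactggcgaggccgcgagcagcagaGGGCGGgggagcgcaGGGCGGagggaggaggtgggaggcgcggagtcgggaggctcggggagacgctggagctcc
Epha1: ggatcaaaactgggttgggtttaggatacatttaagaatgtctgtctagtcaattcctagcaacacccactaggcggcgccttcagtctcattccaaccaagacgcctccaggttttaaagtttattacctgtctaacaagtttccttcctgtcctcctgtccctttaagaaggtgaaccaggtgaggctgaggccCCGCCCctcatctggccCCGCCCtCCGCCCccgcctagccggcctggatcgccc
In the 300 bases that reach 50 bases past the start, the Epha5 window held 2 matches and 30 CpG, and the Epha1 window 3 matches and 14 CpG. The matches began 75 and 60 bases before the start in Epha5 and 54, 37 and 30 bases before it in Epha1.

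All 10 genes had a RefSeq promoter, in 13 windows of 300 bases, since Efna1, Efna3 and Epha7 have more than 1 start. GGGCGG was searched on both strands and occurred in 11 of the 13 windows and in 8 of the 10 genes, all but Epha3 and Efna4, against 35.7% of all 32851 windows. TATAAA, the core of the TATA box, occurred in 0 of 13 windows, against 13.6% of all windows. TTTAT, letters found in the binding sites of the Cdx factors and whose reverse complement ATAAA lies within TATAAA, occurred in 2 windows, those of Epha1 and Epha4, against 40.0% of all windows. The 13 windows held 10 to 38 CpG with a median of 20, where the median over all windows was 7. Genes that rose and genes that fell both had windows with GGGCGG, and a match is given only as a description of the letters.

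Epha2, whose receptor is found in many epithelia and in the mouse notochord, was also lower at E8.5 (ENSMUSG00000006445.3, chr4:141301240-141329384, plus strand). It had 8.97 and 9.76 at E8.5, against 17.8 and 17.3 at E7.5. The log2 fold change was -0.84 (standard error 0.12, 95% interval -1.10 to -0.58, limma adjusted p = 3.8e-05), with the stages further apart than the replicates of either. Epha4, a receptor that binds ephrins of both classes, had the smallest change (ENSMUSG00000026235.14, chr1:77367185-77515088, minus strand). Its values were 69.5 and 69.6 at E8.5, against 79.8 and 79.5 at E7.5, so the replicates agreed closely at both stages. Epha4 fell by 0.19 (standard error 0.07, 95% interval -0.34 to -0.05, limma adjusted p = 0.026), and the call was lost without E8.5 replicate 1 (adjusted p = 0.15), without E8.5 replicate 2 (0.14), with DESeq2 (0.075) and without the filter on low values (0.052).

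Epha7 (ENSMUSG00000028289.12, chr4:28813131-28967499, plus strand) rose. It encodes a receptor known in the mouse for its part, with ephrin-A5, in joining the neural folds. The values were 12.1 and 10.3 at E8.5, against 8.43 and 7.86 at E7.5. These stages did not overlap, but the nearest values differed by only 1.85. Epha7 had a log2 fold change of 0.41 (standard error 0.14, 95% interval 0.12 to 0.70, limma adjusted p = 0.021). That call depended on single libraries: the adjusted p was 0.18 without E8.5 replicate 1, 0.055 without E7.5 replicate 1 and 0.10 without E7.5 replicate 2, as well as 0.079 with DESeq2 and 0.082 without the filter. Without each of these libraries the direction was kept.

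Epha3 (ENSMUSG00000052504.7, chr16:63543534-63864175, minus strand), a receptor with high affinity for ephrin-A5, had 12 and 8 reads at E8.5 against 6 and 14 reads at E7.5. In normalized counts these are 0.630 and 0.418 at E8.5 against 0.337 and 0.710 at E7.5. The 20 reads at each stage gave a ratio of 0.982 with an exact binomial 95% interval of 0.501 to 1.92. No difference was detectable at this depth. The interval covers counting error only, since reads amplified without molecular identifiers are not independent molecules.

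The 4 ligands all rose. Efna3 had the largest change of them, with 20.2 and 21.9 at E8.5 against 7.59 and 10.6 at E7.5. The E7.5 replicates of Efna3 differed by 0.43 on the log2 scale, a gap reached by 4.63% of the genes tested, and still lay below both E8.5 libraries. The means were 21.0 ± 1.18 at E8.5 and 9.09 ± 2.13 at E7.5, a ratio of 2.31, and the log2 fold change was 1.14 (standard error 0.14, 95% interval 0.84 to 1.45, limma adjusted p = 9.2e-06). Leaving out each library in turn moved it between 0.92 and 1.36.

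Changes of the other 3 ligands were close to each other in size. Efna1, first known as a gene induced by tumour necrosis factor in human endothelial cells, had 49.3 and 51.0 at E8.5 against 31.9 and 37.2 at E7.5, a log2 fold change of 0.53 (standard error 0.09, 95% interval 0.34 to 0.72, limma adjusted p = 0.00015). Efna4, which encodes ephrin-A4, had 24.7 and 27.7 at E8.5 against 17.7 and 16.9 at E7.5, and the log2 fold change was 0.57 (standard error 0.10, 95% interval 0.34 to 0.79, limma adjusted p = 0.00034). Efna5, whose product repels retinal axons in the midbrain, had 33.1 and 30.9 at E8.5 against 20.5 and 22.4 at E7.5, with a log2 fold change of 0.56 (standard error 0.10, 95% interval 0.35 to 0.76, limma adjusted p = 0.00021). The 95% intervals of these ligands overlap each other for most of their length, while that of Efna3 lies above all 3. Ligand calls were kept under every alternative run.

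**Figure D2:**
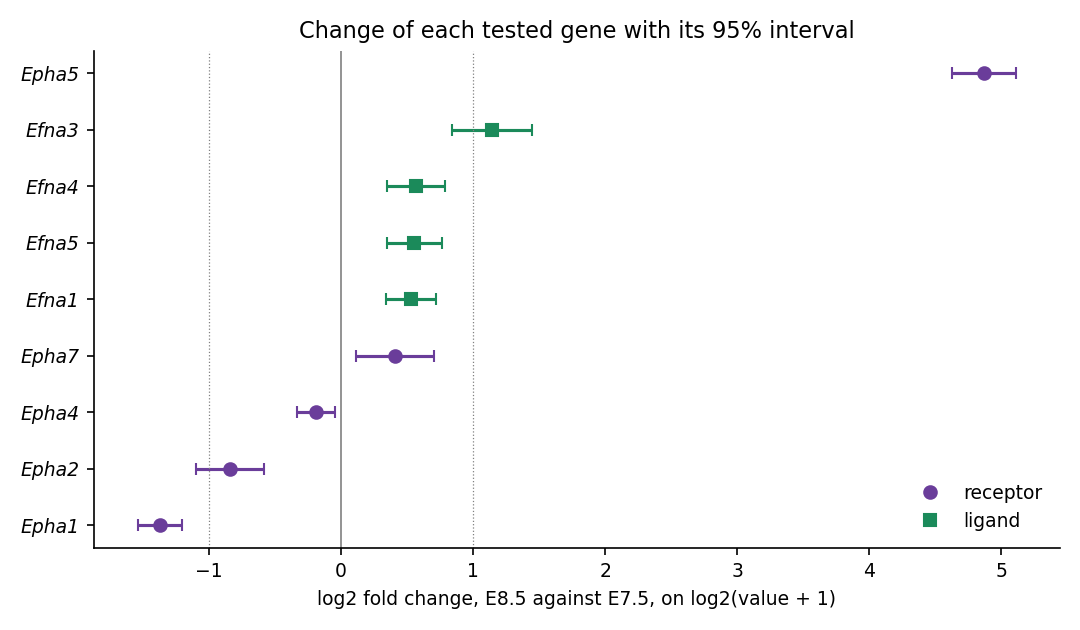
Log2 fold change of each tested receptor (purple circles) and ligand (green squares), E8.5 against E7.5 on log2(value + 1), with the 95% interval from limma as a bar, the solid line at 0 and dotted lines at -1 and 1. Epha5 lies at 4.87, the 4 ligands between 0.53 and 1.14, and Epha1, Epha2 and Epha4 below 0.

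Genes for 3 of the ligands lie together on chromosome 3. Efna1 (ENSMUSG00000027954.9, chr3:89271733-89281142), Efna3 (ENSMUSG00000028039.11, chr3:89313899-89322965) and Efna4 (ENSMUSG00000028040.7, chr3:89333390-89338028) are all on the minus strand and within 66296 bases, with 32756 bases between Efna1 and Efna3 and 10424 between Efna3 and Efna4. Not every gene around them rose. Next to Efna1, Slc50a1 had a log2 fold change of -0.76 (limma adjusted p = 0.0011) and Dpm3 of -0.51 (limma adjusted p = 0.016), whereas Adam15, beyond Efna4, had one of 0.98 (limma adjusted p = 9.7e-05). Antisense genes share 344 exon bases with Efna3 (14.1% of its exons) and 168 with Efna4 (10.5%), and had 1 to 7 reads in any library. Efna5 lies elsewhere, on chromosome 17 (ENSMUSG00000048915.12, chr17:62604184-62881317, minus strand).

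The promoters of Efna3 and Efna4 are shown as those of neighbours that both rose and yet differ in the letters searched. They are the 250 bases before the RefSeq start on GRCm38.p6, both on the minus strand, 5′ to 3′, with GGGCGG or CCGCCC in capitals. Efna3 has a second start further into the gene, and the outer one is shown, at chr3:89322940-89323189, beside Efna4 at chr3:89338029-89338278.
Efna3: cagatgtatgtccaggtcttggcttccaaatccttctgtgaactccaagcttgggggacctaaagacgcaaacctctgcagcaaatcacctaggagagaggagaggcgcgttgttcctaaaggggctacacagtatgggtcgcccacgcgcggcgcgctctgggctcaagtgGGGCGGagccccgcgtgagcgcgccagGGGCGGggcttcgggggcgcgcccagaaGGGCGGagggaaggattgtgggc
Efna4: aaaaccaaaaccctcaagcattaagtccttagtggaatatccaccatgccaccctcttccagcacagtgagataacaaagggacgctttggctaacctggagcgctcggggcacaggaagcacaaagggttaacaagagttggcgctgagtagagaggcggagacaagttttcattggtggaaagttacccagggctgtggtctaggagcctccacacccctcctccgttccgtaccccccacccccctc
Over the 300-base windows, that of Efna3 held 3 matches and 22 CpG, and that of Efna4 held 0 matches and 11 CpG.

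Levels of different genes were compared per kilobase (kb) of exon, since a longer transcript gives more reads. Over all exons, Epha1 was the highest receptor at E8.5, with a mean of 9.87 per kb, followed by Epha4 (8.64), Epha5 (5.03), Epha2 (2.0), Epha7 (1.13) and Epha3 (0.0602). At E7.5 Epha1 was again the highest, with 26 per kb, followed by Epha4 (9.89), Epha2 (3.75), Epha7 (0.824), Epha5 (0.115) and Epha3 (0.0602). Epha5 thus ranked next after Epha4 at E8.5, and at E7.5 was above Epha3 alone. On this measure, no neighbours in either order overlapped between libraries. The place of Epha5 depends on its length, because GENCODE gives it 16739 bases of exon over all its transcripts, and only 7328 in the longest transcript. With the longest transcript of each gene, Epha5 (11.5 per kb) came above Epha4 (11 per kb) at E8.5. It then overlapped Epha1, with 11.8 and 11.2 per kb for Epha5 and 11.4 and 12.3 per kb for Epha1, so the order of these receptors at E8.5 is not settled.

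Among the ligands, Efna1 was the highest at both stages, with a mean of 27.4 per kb at E8.5 and 18.9 per kb at E7.5, and Efna4 followed with 16.4 per kb at E8.5 and 10.8 per kb at E7.5. Efna3 and Efna5 changed places, with Efna3 at 8.64 and Efna5 at 7.94 per kb at E8.5 and with Efna3 at 3.74 and Efna5 at 5.32 per kb at E7.5. Neighbours among these 4 ligands did not overlap between libraries either.

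Summed over the 6 receptors, the level per kb was 26.5 and 27.0 at E8.5, against 42.2 and 39.1 at E7.5. The means were 26.7 ± 0.334 at E8.5 and 40.6 ± 2.19 at E7.5, a ratio of 0.658. With the longest transcript in place of all exons that ratio was 0.772. The sum over the 4 ligands went the other way, with 58.9 and 61.9 at E8.5 against 36.7 and 40.9 at E7.5, a ratio of 1.56. The stages did not overlap in either sum. Over all exons, Epha1 and Efna1 were the largest single parts of these sums at both stages. The sums were not tested.

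The share of each gene in these sums describes the make-up of the 6 receptors and of the 4 ligands listed, not of the whole family. Efna2, a ligand outside the sums, stood at 1.45 and 1.30 per kb at E8.5 against 3.19 and 3.02 at E7.5. Epha1 made up 35.9% and 37.9% of the receptor level at E8.5, against 65.1% and 62.8% at E7.5. Epha5 made up 19.4% and 18.3% at E8.5, against 0.271% and 0.295% at E7.5. With the longest transcripts the shares of Epha5 were 30.7% and 29.1% at E8.5 against 0.504% and 0.548% at E7.5, and those of Epha1 29.8% and 31.8% at E8.5 against 63.8% and 61.4% at E7.5. Epha4, which had the smallest change in level, took 32.6% and 32.1% at E8.5 against 23.5% and 25.2% at E7.5. Efna1 made up a similar part of the ligand level at both stages, 45.8% and 45.1% at E8.5 and 47.5% and 49.8% at E7.5, and Efna3 took 14.1% and 14.5% at E8.5 against 8.49% and 10.7% at E7.5.

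**Figure D3:**
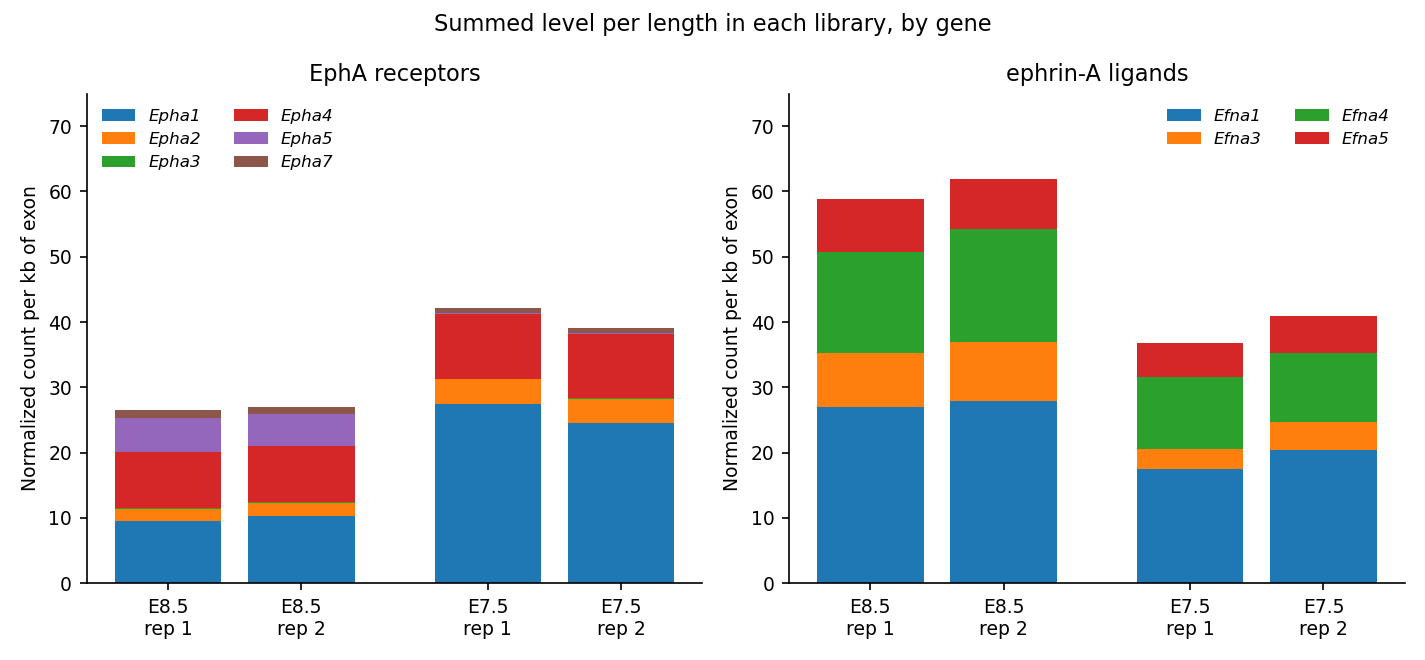
Normalized count per kb of exon, stacked by gene, for the EphA receptors (left) and ephrin-A ligands (right) in each library, with the E8.5 libraries left of the E7.5 libraries. The receptor bars reach 26.5 and 27.0 at E8.5 against 42.2 and 39.1 at E7.5, and the ligand bars 58.9 and 61.9 at E8.5 against 36.7 and 40.9 at E7.5. Epha1 (blue) makes up 35.9% and 37.9% of the receptor bars at E8.5 and 65.1% and 62.8% at E7.5.

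Of the 4 remaining genes of the A class, only Efna2 passed the filter on low values. Efna2, on chromosome 10, went against the other ligands, with 3.10 and 2.77 at E8.5 against 6.80 and 6.44 at E7.5 (log2 fold change -0.96, standard error 0.16, limma adjusted p = 0.00012). Epha6 had 5 reads at E8.5 against 1 read at E7.5 (ratio 4.91, exact binomial 95% interval 0.549 to 232). Epha8 had 5 reads at E8.5 against 11 at E7.5 (ratio 0.446, interval 0.122 to 1.39), and Epha10 had 7 reads at E8.5 against 16 at E7.5 (ratio 0.429, interval 0.149 to 1.10). For these 3 receptors the interval includes 1, so no difference was detectable at this depth.

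Genes whose pattern was most like that of Epha5 and Epha1 were found by the Euclidean distance of the 4 log2 values. Sema3a, a secreted semaphorin that repels axons, lay nearest to Epha5 (distance 0.46), with 86.2 and 86.1 at E8.5 against 1.35 and 1.32 at E7.5. Nepn came next (distance 0.53), with 61.9 and 71.8 at E8.5 against 2.02 and 1.67 at E7.5. Nearest to Epha1 were Sh3bgrl2 (distance 0.21), with 41.7 and 40.8 at E8.5 against 97.3 and 95.7 at E7.5, and the endocytic receptor gene Lrp2 (distance 0.23), with 40.7 and 39.6 at E8.5 against 96.2 and 104 at E7.5. With 4 libraries in 2 stages this likeness says only that level and change were alike.

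The other genes of Eph signalling were read from lists of known partners. Of 89 listed genes, which include the 4 other A-class genes, 83 were tested, of which 33 were higher, 20 lower and 30 not called at E8.5, with a median log2 fold change of 0.022. Over all genes tested, 25.6% were higher and 26.4% lower, with a median of -0.0074. In the B class, 2 of 8 receptors and ligands were higher, close to the 25.6% of all genes, and 4 lower, against 26.4%, with a median of -0.33. Ephb2 (log2 fold change 0.37) and Ephb3 (0.35) rose, while Ephb1 (-0.83) and the ligand gene Efnb1 (-0.51) fell, the last with 36.6 and 32.7 at E8.5 against 51.5 and 48.0 at E7.5.

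Signals from Eph receptors reach the actin cytoskeleton through exchange factors, which load small GTPases with GTP, and through GTPase-activating proteins, which switch them off. Of 17 such genes 8 were higher, against 25.6% of all genes tested, and 5 lower, close to the 26.4% of all genes, with a median log2 fold change of -0.13. Ngef and Arhgef19, counted as lower, were under 1 in both E8.5 libraries and passed the filter only through E7.5, so they could only fall. Vav3, an exchange factor, rose (log2 fold change 1.39), with 4.99 and 4.54 at E8.5 against 0.955 and 1.47 at E7.5, and so did Rasa1, which acts on Ras (0.56). Chn2, which switches off Rac, fell (-1.52), with 3.83 and 3.65 at E8.5 against 12 and 13.1 at E7.5, as did the exchange factor gene Arhgef5 (-1.40). Of 16 GTPases and actin effectors, 6 were higher and 2 lower, so that the part called in either direction was near the 52.0% of all genes, and the median was 0.057. The called changes stayed within 1 on the log2 scale, as with Pak3 (0.52), Rap1a (0.38), Limk1 (-0.67) and Pak1 (-0.55). The GTPases Rhoa, Rac1 and Cdc42 were not called, with log2 fold changes of -0.06, 0.05 and 0.06.

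Among 23 adaptors, cytoplasmic kinases and ubiquitin ligases, 8 were higher and 4 lower, a part called that was about the 52.0% of all genes, with a median log2 fold change of 0.022. Grb10, an imprinted adaptor gene better known for the insulin and IGF receptors, was abundant and rose (log2 fold change 1.14), with means of 1275 at E8.5 and 580 at E7.5, and the adaptor gene Nck2 rose by 0.91. Pdzk1, a scaffold of the apical membrane of absorptive epithelia, fell (-2.98), with 2.47 and 2.35 at E8.5 against 27.7 and 24.1 at E7.5, along with Grb7 (-0.67). Visceral endoderm is an absorptive epithelium whose 10 markers fell in the same comparison, and their part in the value of Pdzk1 was not tested. Of 6 phosphatases 2 rose, Ptprf (0.18) and Ptpn11 (0.16), and 0 fell, a smaller part than the 52.0% of all genes, with a median of -0.014.

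Of 12 genes listed as proteases and co-receptors, 7 were higher and 4 lower, where 25.6% of all genes tested were higher and 26.4% lower. The median log2 fold change of this list was 0.45. The list also holds genes of cell junctions, of which Cdh2, Cldn4 and Gja1 were among those higher and Cdh1 among those lower. Ngfr, the p75 neurotrophin receptor, rose (log2 fold change 1.82), with 42.7 and 43.7 at E8.5 against 13.0 and 10.1 at E7.5, and so did Ret (1.64), a receptor that works with ephrin-A reverse signals in motor axons. Cdh1, the E-cadherin of epithelial cells, fell (-2.27), with 36.2 and 32.8 at E8.5 against 165 and 174 at E7.5, and Ntrk2 fell by 1.26. Ntrk2 was under 1 in both E8.5 libraries (0.892 and 0.365) and passed the filter only through E7.5, so it could only fall. Adam12, counted as higher, was under 1 in both E7.5 libraries (0.618 and 0.254) and could only rise. Adam10, a protease that cuts ephrin-A ligands from the membrane and was picked out after its values were seen, had 94.5 and 90.2 at E8.5 against 54.5 and 57.7 at E7.5 (log2 fold change 0.71, limma adjusted p = 8.7e-07).

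**Figure D4:**
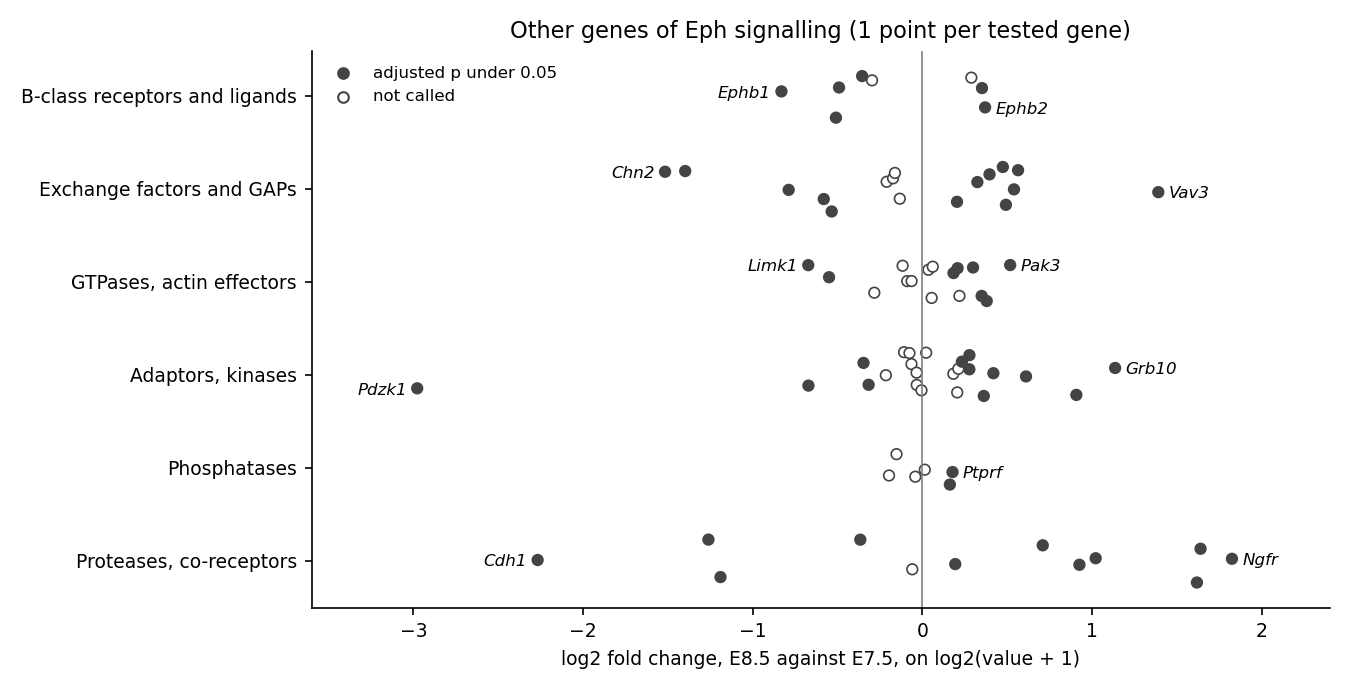
Log2 fold change, E8.5 against E7.5 on log2(value + 1), of the other Eph signalling genes that were tested, in 6 groups with 1 point per gene (filled when called at an adjusted p under 0.05, open when not, and spread vertically only for legibility). Called genes of both directions occur in every group but the phosphatases, where 2 of 6 genes rose, and Pdzk1 (-2.98) lies furthest below 0 and Ngfr (1.82) furthest above it.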

How the data were processed

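Libraries were made with SMART-Seq2 from total RNA of pooled posterior epiblasts, 2 at E8.5 and 2 at E7.5, and sequenced as single-end reads. Per the labels, the authors aligned to mm10 with STAR. The deposited signal values are read counts that the authors divided by a factor per library; the paper's text names DESeq2 for this step and the submitters' processing notes name edgeR. The counting program and its strand setting are not given in the sources used here. Dividing each library's values by their common step returned whole reads for 100% of them within a tolerance of 0.0001 reads.

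Values were analysed as log2(value + 1) in limma 3.58.1 (R 4.3.3; lmFit, then eBayes with a trend) with stage as the only term, 2 residual and 12.8 prior degrees of freedom, two-sided, for the 13903 of 53397 genes that reached a value of 1 in 2 or more libraries. The Benjamini-Hochberg adjustment ran over all genes tested. The test was also run on simulated counts, with a common spread for all genes and few genes changed. There it found 93 of 99 changes of 1 on the log2 scale and 100 of 100 changes of 2, with 8 false calls. In the data 52.0% of genes tested were called, so the simulated setting differs from theirs. P-values measure the spread between these pools only. Alternatives were other pseudocounts (0.1 and 4), other filters, TMM and DESeq2 size factors, edgeR 4.0.16 (quasi-likelihood) and DESeq2 1.42.0 on the recovered reads, a replicate block, and each library left out. Levels per kb used the exon union of GENCODE vM21 (GRCm38), where 53311 gene identifiers matched. Promoters came from RefSeq (GRCm38.p6).

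The genes followed and the lists were chosen with earlier results of these data known. Named beyond them were the other A-class genes, up to 2 called genes per direction and pathway list, the 2 genes nearest to Epha5 and Epha1, and the 2 highest markers of a list; the other genes named, among them the chromosome 3 neighbours, Zyx, Adam10, Rhoa, Rac1 and Cdc42, were picked after their values were seen.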

Additional observations from a re-analysis of the deposited data

How the results depend on the processing

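Over 14 alternatives, 117 of 126 fold changes of the tested EphA receptors and ephrin-A ligands kept their direction and their call, 9 lost the call and 0 reversed. All losses were of Epha4 and Epha7. Without the filter on low values Epha4 stood at -0.19 and Epha7 at 0.41, and with DESeq2 on the reads at -0.20 and 0.46. Leaving out a library kept Epha4 between -0.20 and -0.19 and Epha7 between 0.30 and 0.52, and gave 5 to 6 of these genes higher and 2 to 3 lower. Over all genes, leaving out a library gave 2678 to 3424 genes higher and 2817 to 3382 lower, and the other settings 2464 to 3751 and 2729 to 3669. Where a stage was left with a single library, that library was assumed to vary like the other stage.

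The replicate numbers are shared between stages, and the deviations of same-numbered libraries correlated at -0.0025 over 13903 genes. With 2 libraries per stage, this does not settle whether same-numbered libraries were paired. With the replicate number as a block, 3598 genes were higher and 3660 lower, and all 9 genes stayed called (Epha4 at an adjusted p of 0.035 in limma, Epha7 at 0.019).

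Chosen after seeing the data, scaling to the total without CT010467 gave 3751 genes higher and 3465 lower and moved the median of all genes from -0.0074 to 0.011. The longest transcript in place of all exons, also chosen then, moved the ratio of summed receptor levels to 0.772, against 0.658. Depth limits Epha3, Epha6, Epha8 and Epha10, which had at most 14 reads in a library.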
